A study of Mus musculus with 6 samples.

Results

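The small leucine-rich proteoglycans (SLRPs) are secreted proteins built around a curved run of leucine-rich repeats, most of which carry chondroitin or dermatan sulfate, keratan sulfate or tyrosine sulfate. They bind fibrillar collagen and shape how collagen fibrils form and how thick they grow, and several of them hold growth factors such as TGF-β in the matrix. In bone, biglycan and decorin are abundant proteoglycans of the osteoblast matrix, and osteomodulin (also called osteoadherin) and osteoglycin are known from mineralized tissue. The family members examined were Dcn, Bgn and Aspn (class I), Fmod, Lum, Prelp, Kera and Omd (class II), Ogn (class III) and Podn. Every probe set whose platform annotation names 1 of these 10 genes was taken, alone or together with other symbols. This gave 21 probe sets out of 45037, and 0 of them named a further gene. All 10 genes had at least 1 probe set.

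The cells were MC3T3-E1 subclone 4, a clonal pre-osteoblastic line from mouse calvaria, so that all arrays come from 1 clone. Group AA (3 samples) received ascorbic acid (AA) at 50 µg/ml for 5 days, and the control group (3 samples) was kept for the same 5 days in α-MEM with serum and no added AA. AA is a cofactor of the prolyl and lysyl hydroxylases that modify procollagen, and it drives these cells towards the differentiated osteoblast. Total RNA was hybridized to Affymetrix Mouse Genome 430 2.0 arrays, 1 array per sample. Nothing in the labels says whether the 3 samples of a group were separate cultures or wells of 1 culture, so the p-values speak for these samples only. The fit described below pairs samples by replicate number. Its p-values rest on how far the differences between same-numbered AA and control samples vary, and on a variance shared with other probe sets.

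The deposited values were linear signals with the same trimmed mean, 150, on every array. The median signal was 16.2 to 16.9 on the AA arrays and 14.9 to 17.7 on the control arrays. Gapdh 3′ to 5′ signal ratios were 0.791 to 0.799 on AA arrays and 0.807 to 0.920 on control arrays, with control replicate 3 highest. Those of actin were 1.35 to 1.45 on AA arrays and 1.39 to 1.79 on control arrays, again with control replicate 3 highest. The part of RNA quality in the results below was not tested. Of 8 osteoblast markers with a probe set, Alpl, Ibsp and Pth1r rose with AA (4.06% of all genes were higher). The Pth1r call was lost in 9 of 17 alternative settings, among them the fit without the replicate block (limma adjusted p = 0.118). Col1a1, Col1a2 and Sp7 were above the median signal of all probe sets without passing the test, and the late markers Dmp1 and Phex were below it. The summed deposited signal of these 8 markers was 20749 to 27431 on AA arrays and 16216 to 19706 on control arrays. Its brightest members were Col1a2 (mean 8948 in AA and 7961 in control), Col1a1 (7122 and 6052) and Ibsp (4807 and 1631). The part of the marker shift in the SLRP results was not tested. Macrophage markers summed to 97.9 to 119.8 on AA arrays and 40.3 to 48.9 on control arrays, a difference carried by Csf1r (87.4 ± 15.0 in AA and 24.5 ± 0.572 in control, SD, n = 3 each), while Ptprc, Adgre1 and Cd68 were below the median signal. Endothelial (3 of 3) and adipocyte (3 of 3) markers were below the median signal and 0 of them passed, with sums of 17.9 to 25.5 on AA arrays and 20.0 to 27.1 on control arrays for the endothelial list, and 9.92 to 12.2 on AA arrays and 4.74 to 9.56 on control arrays for the adipocyte list.

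Across the family the response to AA went in both directions. Fold changes below are AA over control, from log2 signals after quantile normalization between arrays, and come from a limma model that includes replicate numbers as blocks. A probe set passed where its Benjamini-Hochberg adjusted p, taken over all 45037, was under 0.05. Lum, Omd, Prelp and Dcn were higher in AA cells, and 5 of the 21 SLRP probe sets passed in that direction, against 2.71% of all probe sets. Ogn and Fmod were lower, and 6 of the 21 probe sets passed in that direction, against 2.50% of all probe sets. Bgn, Aspn, Podn and Kera had no probe set that passed. Taking the brightest probe set of each gene, 4 of 10 SLRP genes were higher (4.06% of all 18193 genes) and 1 of 10, Ogn, was lower (3.83% of all genes). Calls were commoner among bright genes. Of the 9 SLRP genes above the median signal 4 were higher and 1 lower, beside 722 and 682 of all 10822 genes above it.

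Over the 9 SLRP genes above the median signal the median log2 fold change was -0.15, beside -0.03 over the 10822 genes above it. Probe sets of 1 gene read the same transcripts, so that the 6 Fmod probe sets are not separate observations. On the signals as deposited, the groups did not overlap for 5 of 21 SLRP probe sets with AA higher (11.0% of all probe sets) and for 7 of 21 with AA lower (11.8% of all probe sets). The calls needed limma's prior variance to follow the mean signal. With a prior that did not, 0 of 45037 probe sets passed, although 4 SLRP probe sets with AA higher, 3 with AA lower and 5203 probe sets in all had an unadjusted p under 0.05.

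**Figure D1:**
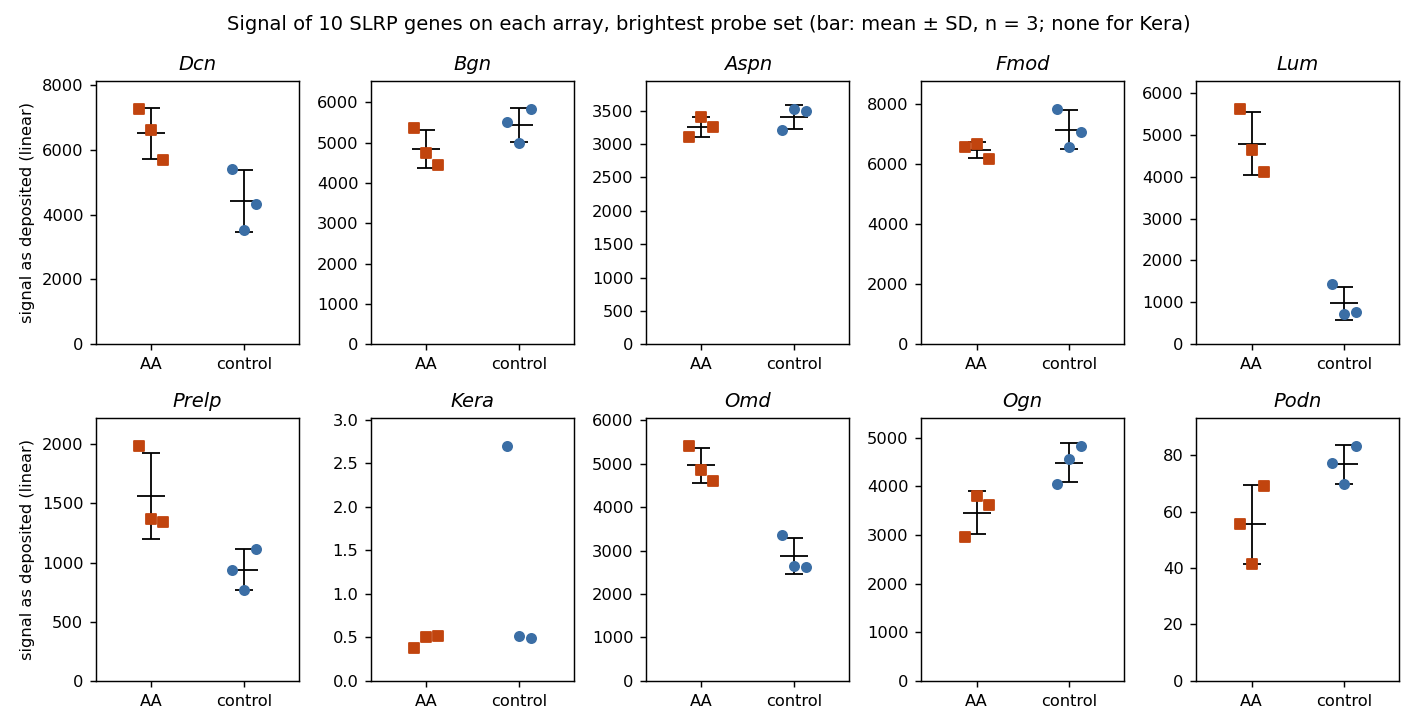
Deposited linear signal of the brightest probe set of each SLRP gene on each array, with AA arrays as squares on the left and control arrays as circles on the right; bars show the mean ± SD (n = 3) and are left out for Kera, whose signals were below the array medians. The AA and control arrays do not overlap for Dcn, Lum, Prelp and Omd, with AA higher, or for Ogn and Podn, with AA lower, and each panel has its own axis because probe sets differ in brightness.

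Lumican showed the greatest fold change of the family. Lum encodes a keratan sulfate proteoglycan best known from cornea, where it keeps collagen fibrils thin and evenly spaced, and it is also made by osteoblasts. Its 1 probe set (1423607_at) gave 5614, 4637 and 4120.2 on the AA arrays, against 1429, 722 and 774 on the control arrays. The lowest AA array was well above the highest control array. The mean signal was 4790.3 ± 758 in AA cells and 975 ± 394 in control cells (SD, n = 3 each), and the fitted change was 4.91-fold (log2 2.30, SE 0.13, 95% interval 1.99 to 2.60, limma adjusted p = 0.000211). The 3 same-numbered pairs differed by log2 1.83, 2.58 and 2.47. In bulk RNA of this kind, more cells that express a gene and more RNA per cell cannot be told apart, here and in each result that follows.

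The call for Lum held with each sample or pair left out, under each scaling and without the block. It was lost with the prior that did not follow the signal (adjusted p = 0.376) and in the paired test named by the methods (Benjamini-Hochberg adjusted p = 0.312). Among 10821 genes above the median signal, the ones whose log2 signal followed Lum most closely over the 6 arrays were 1110059G10Rik (Pearson r = 0.999), Mospd1 (r = 0.999) and Mrgprf (r = 0.998). All 6 points share the split into AA and control arrays, and 395 of the 10821 genes had r over 0.95, so these values are a description only. Mrgprf, an orphan G protein-coupled receptor gene, averaged 255 in AA cells and 89.6 in control cells.

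Decorin, whose gene neighbours Lum on chromosome 10 (gene order here and below is that of RefSeq, GRCm38.p6), was also higher. Dcn encodes a proteoglycan with 1 glycosaminoglycan chain that binds type I collagen and TGF-β. Its bright probe set (1449368_at) gave 7252, 6596 and 5676 on AA arrays, against 5409.9, 3510.1 and 4314 on control arrays. The groups did not overlap, but AA replicate 3 lay close to control replicate 1. The means were 6508 ± 792 in AA cells and 4411 ± 954 in control cells (SD, n = 3 each), and the fitted change was 1.39-fold (log2 0.47, SE 0.09, limma adjusted p = 0.0202). The dim probe set of the gene (1441506_at) gave 23.2 to 46.2 on AA arrays and 18.3 to 31.4 on control arrays, with overlap (log2 0.40, adjusted p = 0.430).

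The decorin call was less stable than that of lumican. It was lost with median centring of the arrays (log2 0.52, adjusted p = 0.146) and without replicate pair 2 (log2 0.36, adjusted p = 0.106). It was also lost when any single AA array, control replicate 2 or control replicate 3 was left out together with the block (adjusted p of 0.102 to 0.156). The log2 ratio of Lum to Dcn on the same array was -0.36, -0.50 and -0.50 in AA samples and -1.90, -2.37 and -2.54 in control samples, a shift of 1.82. That pair, like the other ratios of neighbouring genes given here, was picked after its values were seen and was not tested, and because probe sets differ in brightness only the shift between groups can be read from it.

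Omd and Ogn lie side by side on chromosome 13 and moved in opposite directions. Osteomodulin is a keratan sulfate SLRP of mineralized matrix that binds collagen, and the bovine protein is known to bind osteoblasts through integrin αVβ3. The Omd probe set (1418745_at) gave 5406, 4853 and 4608 on AA arrays, against 3358, 2643 and 2613 on control arrays. Every AA array was above every control array. The means were 4956 ± 408 in AA cells and 2871 ± 422 in control cells (SD, n = 3 each), a fitted change of 1.64-fold (log2 0.71, SE 0.08, 95% interval 0.54 to 0.89, limma adjusted p = 0.00221). This call, like that of Lum, was lost only with the prior that did not follow the signal (adjusted p = 0.389) and in that paired test, among the 17 alternatives run.

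Osteoglycin (mimecan), first isolated from bone, binds collagen and regulates fibril thickness. Both Ogn probe sets fell with AA. Probe set 1419662_at gave 1861, 3068 and 2786 on AA arrays, against 3146, 4357 and 4627 on control arrays. AA replicate 1 and control replicate 1 were the lowest arrays of their groups, and the groups did not overlap, although the highest AA array (3068) was close to the lowest control array (3146). The fitted change was 0.598-fold (log2 -0.74, SE 0.07, limma adjusted p = 0.000982), and the same-numbered pairs differed by log2 -0.81, -0.67 and -0.75.

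The brighter Ogn probe set (1419663_at) gave 2963, 3801 and 3609 on AA arrays, against 4049.7, 4569.9 and 4832 on control arrays. Here too all AA arrays were below all control arrays (0.719-fold, log2 -0.48, SE 0.07, limma adjusted p = 0.00613). Without the block, the adjusted p of 1419662_at was 0.0801, and with median centring that of 1419663_at was 0.156. Both calls were lost when any single AA array, control replicate 2 or control replicate 3 was left out together with the block (adjusted p of 0.0698 to 0.236), and both held when whole pairs were left out. The log2 ratio of Omd to Ogn was 0.81, 0.33 and 0.38 in AA samples and -0.29, -0.85 and -0.92 in control samples, a shift of 1.19.

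The genes whose log2 signal followed that of Ogn (1419663_at) most closely over the 6 arrays were Pde4b (r = 0.998), Nr2f2 (r = 0.995) and Fbn2 (r = 0.994), out of 10821 genes of which 231 had r over 0.95. Fbn2 encodes fibrillin-2, a microfibril protein, and averaged 597 in AA cells and 1075 in control cells. Pde4b, a cAMP phosphodiesterase gene, averaged 21.8 in AA cells and 63.0 in control cells.

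The promoter windows of Omd and Ogn are shown because these neighbours moved apart. RefSeq windows (build GRCm38.p6) run from 250 bases before to 50 bases after the start of a gene, and 8 of the 10 SLRP genes were matched to one. Dcn and Lum were not matched. The Omd window is chr13:49582212-49582511 and the Ogn window is chr13:49607765-49608064, both on the plus strand. Capitals mark matches to the motifs searched on both strands, which were the TATA box (TATAAA), the CCAAT box (CCAAT), the GC box (GGGCGG), the core of the RUNX site (TGTGGT) and the AP-1 site (TGANTCA).
Omd: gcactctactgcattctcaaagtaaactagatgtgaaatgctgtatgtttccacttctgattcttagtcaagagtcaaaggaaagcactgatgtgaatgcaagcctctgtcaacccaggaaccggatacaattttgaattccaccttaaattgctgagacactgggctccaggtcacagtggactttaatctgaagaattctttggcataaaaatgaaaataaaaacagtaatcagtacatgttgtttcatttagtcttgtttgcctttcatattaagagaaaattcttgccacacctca
Ogn: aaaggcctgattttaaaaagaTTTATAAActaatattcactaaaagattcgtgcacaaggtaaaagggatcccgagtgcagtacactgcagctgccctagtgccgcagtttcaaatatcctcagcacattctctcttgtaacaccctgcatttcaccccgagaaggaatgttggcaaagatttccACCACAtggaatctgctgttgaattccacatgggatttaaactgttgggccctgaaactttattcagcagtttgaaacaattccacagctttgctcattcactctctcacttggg

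The Omd window held no match to any of these letters. In the Ogn window, matches to the TATA letters on both strands overlap 229 and 227 bases before the start, and a RUNX core match on the minus strand (read as ACCACA) begins 65 bases before it. Of all 32851 windows of the same length, 13.62% held the TATA letters and 16.76% held the RUNX core. The 8 SLRP genes with a window were each counted where any of their windows matched (Podn had 2). The TATA letters were found for Aspn and Ogn and the RUNX core for Ogn. The CCAAT letters were found for 4 of 8 genes (37.41% of all windows), the GC box for Bgn and Podn (35.66%) and the AP-1 letters for 0 of 8 (7.808%). These are matches of letters and not measured binding sites.

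**Figure D2:**
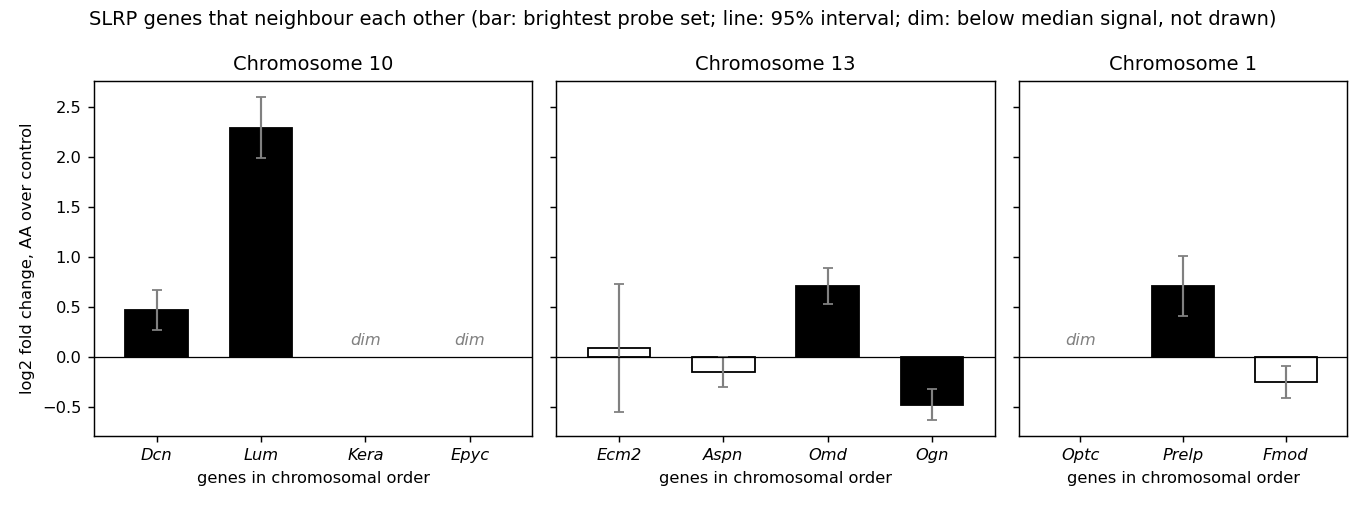
Log2 fold change (AA over control) of SLRP genes that lie next to each other on chromosomes 10, 13 and 1, in chromosomal order, by brightest probe set; lines are 95% intervals and filled bars passed at a limma adjusted p under 0.05. On chromosome 13 Omd (0.71) and Ogn (-0.48) stand on opposite sides of 0, and on chromosome 1 Prelp (0.71) and Fmod (-0.25) do, although this Fmod probe set did not pass. Genes marked dim (Kera, Epyc and Optc) were below the median signal and have no bar.

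A second neighbouring pair, Prelp and Fmod on chromosome 1, also moved apart. Prelp encodes a proline- and arginine-rich SLRP that binds heparan sulfate and collagen and anchors basement membranes to connective tissue. Its brighter probe set (1416321_s_at) gave 1985, 1365 and 1346 on AA arrays, against 941, 765 and 1113 on control arrays. The groups did not overlap, and AA replicate 1 was the highest array by far. The fitted change was 1.63-fold (log2 0.71, SE 0.13, limma adjusted p = 0.0198). The other probe set (1416322_at) gave 482, 394 and 418 on AA arrays, against 315, 248 and 311 on control arrays, again with no overlap (1.52-fold, log2 0.61, SE 0.09, limma adjusted p = 0.010).

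Both Prelp calls were lost without replicate pair 2 (adjusted p = 0.0894 for 1416321_s_at and 0.0852 for 1416322_at). Both were also lost when any single AA array or control replicate 2 was left out together with the block, and that of 1416321_s_at when control replicate 1 was (adjusted p = 0.0755) or when 50 was added to every signal (adjusted p = 0.0592).

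Fibromodulin binds collagen and TGF-β and shares its collagen site with lumican. All 6 Fmod probe sets had a lower mean in AA cells (log2 fold change between -0.25 and -0.43), and 4 of them passed (1438966_x_at, 1437718_x_at, 1437324_x_at and 1437685_x_at, limma adjusted p of 0.0162 to 0.0334). The suffix _x_at marks probes that may also match other transcripts, and all 4 that passed carry it. Probe set 1437324_x_at, with the smallest p, gave 3171, 2971 and 2638 on AA arrays, against 4025, 3293 and 3650.2 on control arrays. Its groups did not overlap (0.758-fold, log2 -0.40, SE 0.07).

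The brightest Fmod probe set (1456084_x_at) gave 6568, 6666 and 6165 on AA arrays, against 7828, 6559.8 and 7068 on control arrays. It overlapped and did not pass (log2 -0.25, 95% interval -0.41 to -0.09, adjusted p = 0.0886). The probe set with no such suffix (1415939_at) gave 3953, 3636 and 3325 on AA arrays, against 4774, 4027 and 3796 on control arrays, and narrowly missed the threshold (log2 -0.29, adjusted p = 0.0531). The Fmod calls were lost under the scalings without quantile normalization. With 50 added to every signal, 1437718_x_at, 1437324_x_at and 1437685_x_at still passed (limma adjusted p of 0.0298 to 0.0415) and 1438966_x_at did not (0.0656). On the signals as deposited the 4 called probe sets were at log2 -0.27 to -0.34 with adjusted p of 0.0905 to 0.130, and with median centring at log2 -0.33 to -0.39 with adjusted p of 0.197 to 0.293, and none of the 6 passed in either. Without the block, the calls of 1438966_x_at (adjusted p = 0.0524) and 1437685_x_at (0.0695) were lost, and all 4 were lost when AA replicate 2 or AA replicate 3 was left out together with the block. The log2 ratio of Prelp to Fmod by brightest probe set was -1.65, -2.20 and -2.28 in AA samples and -3.03, -3.25 and -2.71 in control samples, a shift of 0.96.

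The promoter windows of Prelp and Fmod are shown for the same reason as those on chromosome 13, with capitals again marking motif matches. The Prelp window is chr1:133921352-133921651 on the minus strand and the Fmod window is chr1:134037004-134037303 on the plus strand (RefSeq, GRCm38.p6). Each is written 5′ to 3′ along its gene.
Prelp: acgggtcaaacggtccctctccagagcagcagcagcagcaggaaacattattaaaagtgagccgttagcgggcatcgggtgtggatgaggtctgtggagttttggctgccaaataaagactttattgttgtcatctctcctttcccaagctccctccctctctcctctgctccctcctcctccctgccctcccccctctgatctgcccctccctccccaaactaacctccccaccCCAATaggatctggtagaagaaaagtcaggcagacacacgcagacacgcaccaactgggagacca
Fmod: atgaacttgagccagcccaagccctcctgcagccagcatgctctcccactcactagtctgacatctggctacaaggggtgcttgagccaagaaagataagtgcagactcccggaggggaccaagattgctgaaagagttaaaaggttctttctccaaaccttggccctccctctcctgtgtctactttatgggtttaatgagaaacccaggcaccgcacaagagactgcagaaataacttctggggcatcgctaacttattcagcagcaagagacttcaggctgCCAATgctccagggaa

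Both windows held the CCAAT letters, 15 bases before the start in Prelp and 34 bases after it in Fmod, and neither held any other motif searched. Windows with the CCAAT letters made up 37.41% of all windows, as given above.

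Biglycan, the class I relative of decorin, had lower mean signals in AA cells that did not pass the test with the replicate block. Bgn lies on the X chromosome, usually carries a pair of glycosaminoglycan chains, and its loss in mice is known to lower bone mass. The log2 fold changes of its 3 probe sets ran between -0.24 and -0.29, and the adjusted p between 0.0526 and 0.139. The one nearest the threshold (1448323_a_at) gave 4638, 4147 and 4034 on AA arrays, against 4869.9, 4658 and 4978 on control arrays. Its groups did not overlap, and its 95% interval was -0.45 to -0.13 on the log2 scale. The brightest (1437889_x_at) gave 5349, 4729 and 4437 on AA arrays, against 5509.9, 4989 and 5825 on control arrays, with overlap.

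Bgn passed in some of the alternatives. Without the block 1448323_a_at was lower at an adjusted p of 0.0309, and without control replicate 1 and the block at 0.0458. In a refit limited to the 22518 probe sets above the median signal, 6.96% of them were higher and 6.99% lower. Of the 20 SLRP probe sets in that refit, 5 were higher and 11 were lower, which included both of Ogn, all 6 of Fmod and all 3 of Bgn (adjusted p of 0.0127 to 0.0461). With median centring the adjusted p of the 3 Bgn probe sets was 0.511 to 0.639. The log2 ratio of Dcn to Bgn on the same array was 0.42, 0.47 and 0.38 in AA samples and -0.04, -0.53 and -0.40 in control samples, a shift of 0.75. These genes are not neighbours, and this pair too was picked after its values were seen and was not tested.

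Asporin, a class I member that carries no glycosaminoglycan chain and binds collagen and TGF-β1, showed no detectable change. Its brighter probe set (1416652_at) gave 3103, 3407 and 3259 on AA arrays, against 3206, 3523 and 3497 on control arrays. The groups overlapped (log2 -0.15, 95% interval -0.30 to 0.00, limma adjusted p = 0.294). The other probe set (1448421_s_at) gave 1755, 1934 and 2249 on AA arrays, against 1593, 2377 and 1899.6 on control arrays, and its sign depended on the scaling (log2 -0.02, 95% interval -0.29 to 0.24). Aspn lies between Ecm2 and Omd on chromosome 13.

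Podocan and keratocan were the dimmest members. Podn (1435180_at) gave 55.6, 41.5 and 69.2 on AA arrays, against 77.3, 69.7 and 83.2 on control arrays. The groups just failed to overlap, with AA lower, and the change did not pass (log2 -0.49, 95% interval -0.86 to -0.12, limma adjusted p = 0.145). Kera, whose product is a corneal keratan sulfate proteoglycan, gave 0.381, 0.499 and 0.513 on AA arrays, against 2.70, 0.516 and 0.492 on control arrays. All 6 values were far below the array medians, so no fold change is given, and control replicate 1 stood apart from the other 5 arrays.

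**Figure D3:**
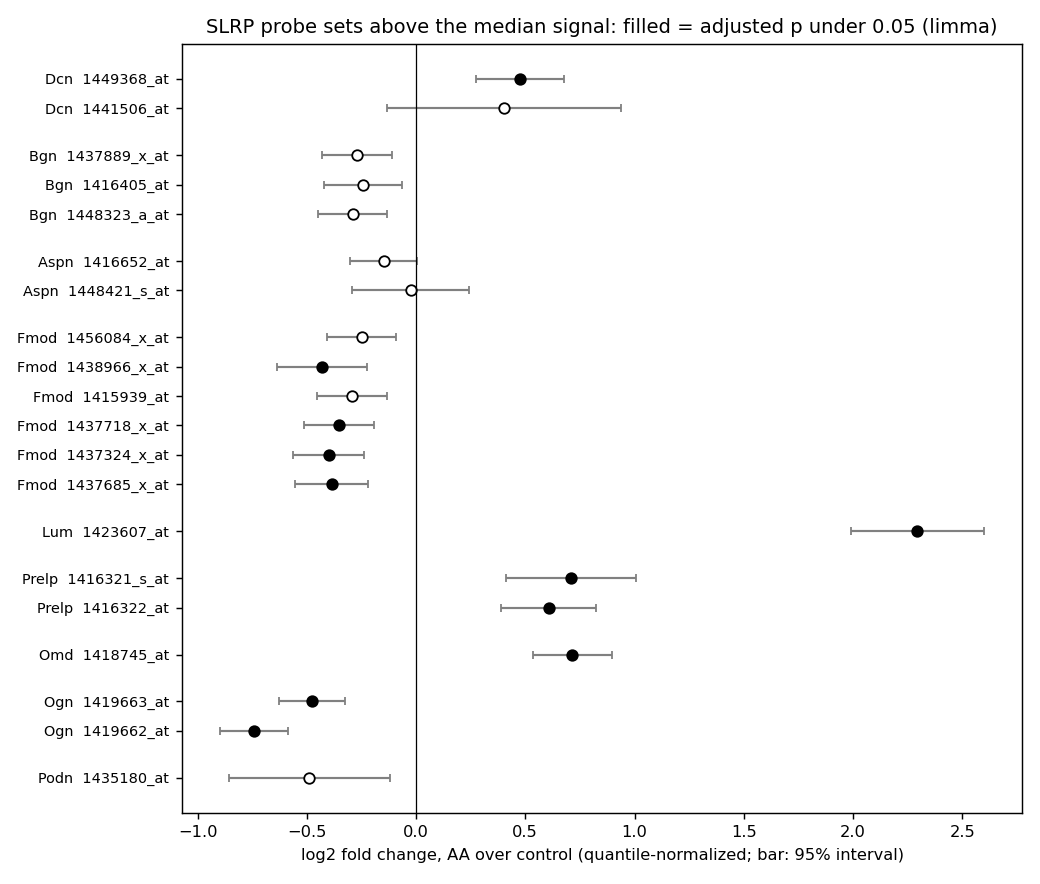
Log2 fold change (AA over control, quantile-normalized) of the 20 SLRP probe sets above the median signal, with 95% intervals, grouped by gene (Kera is not drawn); filled points passed at a limma adjusted p under 0.05. The 5 filled points on the right belong to Dcn, Lum, Prelp and Omd, the 6 filled points on the left belong to Fmod and Ogn, and Lum at 2.30 stands furthest from 0 among those that passed.

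Among further SLRP genes outside the 10, 7 of 9 had a probe set named for them alone. Of these 7, 0 passed in either direction (4.06% of all genes were higher and 3.83% lower). Tsku and Podnl1 were not analysed here. Epyc (epiphycan of cartilage), Optc (opticin of the eye), Chad and Chadl (chondroadherin and its relative), Nyx (nyctalopin of the retina) and Nepn (nephrocan) were below the median signal. Only Ecm2 was above it, with 22.5 ± 4.83 in AA cells and 20.3 ± 1.86 in control cells (SD, n = 3 each), log2 0.09 and an adjusted p of 0.914. Nyx was the 1 gene of the 7 whose groups did not overlap, at 10.3 to 14.3 in AA cells and 6.81 to 9.69 in control cells (adjusted p = 0.608). Of all 18193 genes, 2305 likewise had no overlap with AA higher. Epyc and Kera sit beside Lum and Dcn on chromosome 10, and Optc sits beside Prelp on chromosome 1.

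Enzymes that build the glycosaminoglycan chains were examined next. Of 22 genes for the linker tetrasaccharide and for chondroitin or dermatan sulfate, 5 rose and 1 fell (4.06% and 3.83% of all genes), and the median log2 fold change was 0.24. Chst11, the main chondroitin 4-O-sulfotransferase, averaged 588 ± 170.3 in AA cells and 296 ± 59.3 in control cells (log2 1.00, SE 0.09, limma adjusted p = 0.000982). Pxylp1, the phosphatase that clears phosphate from the linker xylose, averaged 1091 ± 132 in AA cells and 572 ± 71.3 in control cells (log2 0.95, adjusted p = 0.00448). Dsel, which resembles the epimerase that makes dermatan sulfate, rose by log2 0.52 (adjusted p = 0.0155).

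The other 2 that rose, named after their values were seen, were Chpf2 (log2 0.68), a chondroitin polymerizing factor, and B3gat3 (log2 0.55), which completes the linker. The calls of B3gat3, Chpf2 and Dsel were lost in 13, 9 and 7 of 17 alternatives, and with median centring 3 of the 22 genes rose in place of 5 (adjusted p = 0.0654 for B3gat3 and 0.0656 for Dsel). Csgalnact1, which starts the chondroitin chain on the linker, fell to 56.1 ± 8.40 in AA cells, against 124 ± 19.5 in control cells (log2 -1.13, limma adjusted p = 0.00538). The chondroitin synthase Chsy1 and the epimerase Dse did not pass, at log2 0.11 and 0.00.

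Of 10 genes for keratan sulfate synthesis, 1 rose and 0 fell (4.06% and 3.83% of all genes), although 1 was lower with median centring and in the refit above the median signal, and the median log2 fold change was 0.10. The one that rose was St3gal1, a sialyltransferase known mainly for capping O-linked glycans, at 61.3 ± 10.7 in AA cells and 22.9 ± 5.27 in control cells (log2 1.42, limma adjusted p = 0.00987). The keratan sulfate sulfotransferase Chst1 was below the median signal, and the chain-extending galactosyltransferase gene B4galt4, which did not pass, was at 22.1 ± 3.02 in AA cells and 35.7 ± 2.94 in control cells (adjusted p = 0.139).

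Of 11 collagen chains that SLRPs bind, only Col2a1 passed (4.06% of all genes were higher), at 306 ± 56.5 in AA cells and 138 ± 26.8 in control cells (log2 1.18, limma adjusted p = 0.00352). Col2a1 is the cartilage collagen gene and also the only 1 of 6 chondrocyte markers that passed, and Acan, Col9a1, Matn1 and Comp were below the median signal. Sox9, the other marker above it, did not pass and was at 163 to 172 on AA arrays and 179 to 272 on control arrays (log2 -0.33). The chondrocyte markers summed to 455 to 555 on AA arrays and 352 to 419 on control arrays, a difference carried by Col2a1. The part of these markers in the SLRP results was not tested. Col1a1 (log2 0.11), Col1a2 (0.04), Col3a1 (0.05) and Col5a1 (0.07) did not pass, and the median of the list was 0.07.

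Of 17 growth factors and receptors that SLRPs are known to bind, 2 rose and 2 fell (4.06% and 3.83% of all genes), with a median log2 fold change of -0.04. Tgfb1 averaged 216 ± 44.6 in AA cells and 128 ± 40.9 in control cells (log2 0.82, limma adjusted p = 0.00828), a call that was lost without the block. Ccn4, a matricellular protein that binds decorin and biglycan, rose by log2 0.40 (adjusted p = 0.0391). Tgfb2 fell to 84.2 ± 14.8 in AA cells, against 169 ± 50.3 in control cells (log2 -0.96, adjusted p = 0.0426). These calls were lost in 10 (Tgfb1), 12 (Ccn4) and 11 (Tgfb2) of 17 alternatives, and the list had 1 higher and 3 lower with median centring and 1 higher and 0 lower with 50 added to each signal. The other gene that fell, Vwf, was below the median signal at 0.355 to 0.749 on AA arrays and 4.40 to 7.18 on control arrays.

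Of 14 proteinases that cut SLRPs or related matrix proteoglycans, 1 rose and 3 fell (4.06% and 3.83% of all genes), and the median log2 fold change was -0.13. Mmp14, a membrane-bound metalloproteinase, averaged 3197 ± 337 in AA cells and 2285 ± 40.5 in control cells (log2 0.41, limma adjusted p = 0.0131). Adamts1 fell to 365 ± 38.8 in AA cells, against 836 ± 56.0 in control cells (log2 -1.18, adjusted p = 0.000464). Mmp13, a collagenase that also cuts fibromodulin, fell to 45.5 ± 5.80 in AA cells, against 156 ± 2.62 in control cells (log2 -1.77, adjusted p = 0.000658). Adamts5 fell by log2 1.19 (adjusted p = 0.0115), a call that was lost in 10 of 17 alternatives, among them the fit without the block. The call of Mmp14 was lost in 6 of 17 alternatives, among them median centring (adjusted p = 0.133), which left 0 proteinases higher, and the calls of Adamts1 and Mmp13 were each lost in 2 of 17.

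Markers of cells that also make SLRPs gave mixed values. Among myofibroblast markers Tagln (log2 -0.67, limma adjusted p = 0.00405) and Myl9 (log2 -0.34, adjusted p = 0.0313, a call that held in 2 of 17 alternatives) fell, Acta2 did not pass and Cnn1 was below the median signal. These 4 summed to 10515 to 11888 on AA arrays and 11549 to 12895 on control arrays. Of 3 tendon markers 0 passed, with Tnmd below the median signal and a sum of 232 to 267 on AA arrays and 197 to 231 on control arrays. The part of these markers in the SLRP results was not tested.

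**Figure D4:**
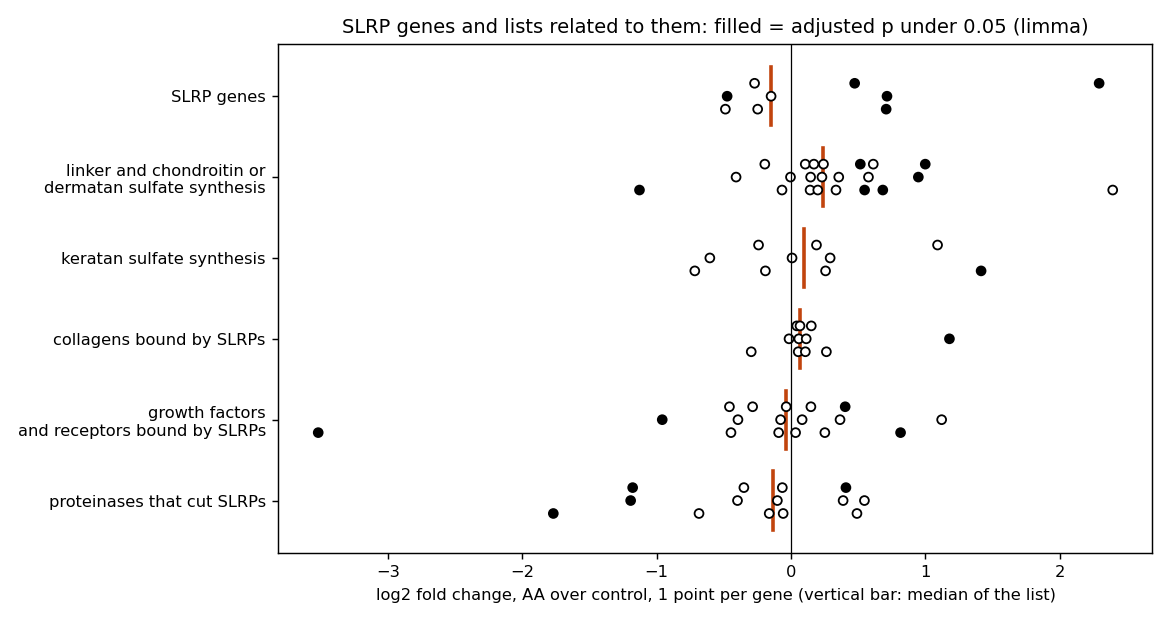
Log2 fold change (AA over control) of the 9 SLRP genes above the median signal and of 5 related gene lists, 1 point per gene by its brightest probe set; filled points passed at a limma adjusted p under 0.05 and vertical bars mark each median. SLRP genes lie on both sides of 0 (median -0.15). The chondroitin and dermatan sulfate enzymes include 17 of 22 to the right of 0 (median 0.24), beside 8669 of all 18193 genes. Unlike the SLRP genes, the 5 lists also hold genes below the median signal, so the medians rest on unlike filters. The outlying open or filled points beyond 2 in size, other than Lum, are dim probe sets.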

How the data were processed

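Total RNA of 3 AA and 3 control samples (day 5) was hybridized to 1-colour arrays. The deposited table held linear signal intensity per probe set, which the authors made with MAS5 (version not given in the sources used here) and scaled to a trimmed mean of 150 (2% cut at each end). For their own analysis the methods name GC-RMA and quantile normalization. The table had no detection calls, so dim probe sets were judged against the median over all probe sets (log2 3.93).

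Of 45101 probe sets, 64 array controls were set aside. Signals were log2-transformed, quantile-normalized and fitted in limma 3.58.1 (R 4.3.3) with replicate numbers entered as blocks, since paired tests are named in the methods, and with eBayes following the mean signal (2 residual and 6.18 prior degrees of freedom) and Benjamini-Hochberg adjustment over 45037 probe sets. The script was tested on simulated data. In the platform annotation 34945 probe sets had 1 symbol, 932 had several and 9160 had none. A gene was represented by its brightest probe set named for it alone. The number of arrays, 3 a group, limits the precision.

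All SLRP probe sets were named. From each list (further SLRPs, linker and chondroitin or dermatan sulfate synthesis, keratan sulfate synthesis, collagens, growth factors and receptors, proteinases, and markers of osteoblasts, chondrocytes, tendon, myofibroblasts, adipocytes, macrophages and endothelium) up to 3 genes per direction with the smallest p were named, and the 3 genes most correlated with Lum and Ogn. The members and lists were chosen with earlier results of these data known. The alternatives were no block, signals as deposited, median centring, 50 added to each signal, probe sets above the median alone, no trend, the methods' t-test, each pair left out, and each array left out together with the block. Xylt1, Runx2, Spp1, Cfd and Plin1 had no probe set named for them alone and were not analysed here.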

Additional observations from a re-analysis of the deposited data

How the results depend on the processing

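Lum, Omd, Ogn, Prelp, Dcn, Fmod and Bgn kept their direction in every alternative run. The counts reported were 5 SLRP probe sets higher, 6 lower and 2343 probe sets passing in all.

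Without the replicate block these counts were 5, 4 and 2128. Same-numbered AA and control arrays deviated together with correlations of 0.0165, 0.0037 and 0.0099 over all probe sets, beside -0.0165 to 0.0068 for arrays of different numbers. Over probe sets above the median signal the values were 0.182, 0.0251 and 0.0921, beside -0.143 to 0.0513. Both values of pair 2 lay within the range of the differently numbered arrays, so that the numbers may not mark a pairing. On the signals as deposited 2 SLRP probe sets were lower, with median centring 1, and with probe sets above the median alone 11. With 50 added to each signal 1443 probe sets passed in all. With no trend in the prior, 0 SLRP probe sets were higher, 0 lower and 0 passed in all (limma, with 4, 3 and 5203 at an unadjusted p under 0.05). The methods' t-test was run here on the quantile-normalized deposited signals, without the fold-change cutoff that the paper also used. It gave 0 higher, 2 lower and 1442 in all at an unadjusted p under 0.01, and 0, 0 and 0 after Benjamini-Hochberg (4, 9 and 5439 at an unadjusted p under 0.05).

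With 1 pair or array left out, the counts were 2 to 5 higher, 0 to 7 lower and 720 to 2108 in all. Single arrays were left out together with the block. The 0 lower came without AA replicate 2 or AA replicate 3 and without the block, where limma gave 11 and 12 at an unadjusted p under 0.05. Aspn 1448421_s_at turned to log2 0.03 (0.0284) on the signals as deposited and ranged from -0.18 to 0.17 with samples left out, and no fold change is given for Kera under any setting because its signals were below the median. Outside the family, single fold changes were followed through the alternatives only for the 22 list genes that had passed. None of these changed direction, and the calls of Tgfb1, Adamts5, Pth1r and Myl9 were lost without the block. Named genes that had not passed were not followed in this way. The cause was not tested. Array scaling moved the median of all probe sets to -0.01 (quantile), 0.01 (as deposited) and -0.05 (median centring), and that of the brightest 2252 probe sets to 0.00, 0.07 and 0.02, which is a limit on the small decreases of Fmod and Bgn.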
